A study of Mus musculus with 30 samples.

Results

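The genes described here are those of the oxytocin and vasopressin system: the peptide genes Oxt and Avp and the receptor genes Oxtr, Avpr1a and Avpr1b. Their open chromatin was followed in 30 bulk ATAC-seq libraries of mouse ventral hippocampus. ATAC-seq cuts accessible DNA with a transposase, so a count in a region measures how open that region is and not how much RNA the gene makes. A region was taken where it overlapped the RefSeq body of one of the 5 genes extended by 10 kb on both sides on GRCm38. This gave 29 of the 257149 regions (peaks) in the table, of which 10 lay in the Oxt window, 11 in the Avp window, 10 in the Oxtr window, 1 in the Avpr1a window and 5 in the Avpr1b window. The Oxt and Avp windows overlap and shared 8 of these peaks, so their values are not independent. All 29 peaks passed the filter on low counts.

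Each library came from the ventral hippocampus of 1 mouse. The mice had either been handled or been restrained daily for 10 days (chronic restraint), and then either stayed in the home cage (0 min) or were collected 45 min after an acute restraint began. The groups were handled mice at 0 min (n = 8), handled mice at 45 min (n = 7), chronically restrained mice at 0 min (n = 8) and chronically restrained mice at 45 min (n = 7). Every group held both sexes and all 4 batches given in the labels, and all mice had been housed singly for 24 h before collection. Strain, age and genotype were not given in the sources used here. The comparisons ask whether acute restraint changes the accessibility of these loci, and whether earlier chronic restraint changes it at rest or alters the acute response.

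Oxytocin and vasopressin are short, closely related peptides that are cut from larger precursors. In mammals they are made chiefly by large neurons of the hypothalamus, which release them into the blood from the pituitary and, through long fibres, within the brain. The receptors are G-protein coupled. The oxytocin receptor and the vasopressin receptors 1a and 1b act mainly through Gq and phospholipase C, and in the hippocampus receptor 1b is best known from pyramidal neurons of field CA2. Oxt and Avp lie beside each other and point towards each other in the genome.

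The bases just upstream of 4 of the annotated starts are shown, for the loci with a peak over the start and for the one without. Whether the bases bear on the presence of a peak was not tested. Each run is the 250 bases before the start in the RefSeq promoter table for GRCm38.p6, written 5′ to 3′ on the strand of the gene. Capitals mark matches to TGACC (an end of the oestrogen response element counted below) or CACGTG (an E-box) on either strand. Avpr1b has no sequence shown.
Oxt: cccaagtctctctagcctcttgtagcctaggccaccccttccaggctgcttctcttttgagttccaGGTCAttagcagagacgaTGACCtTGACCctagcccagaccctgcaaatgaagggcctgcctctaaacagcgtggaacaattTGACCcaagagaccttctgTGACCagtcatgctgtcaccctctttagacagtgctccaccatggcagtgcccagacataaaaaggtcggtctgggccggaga
Avp: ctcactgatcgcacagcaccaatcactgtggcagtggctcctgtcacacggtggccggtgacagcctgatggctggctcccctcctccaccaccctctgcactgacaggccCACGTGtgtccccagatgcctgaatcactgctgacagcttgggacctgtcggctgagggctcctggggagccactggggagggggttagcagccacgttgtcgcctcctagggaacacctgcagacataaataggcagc
Oxtr: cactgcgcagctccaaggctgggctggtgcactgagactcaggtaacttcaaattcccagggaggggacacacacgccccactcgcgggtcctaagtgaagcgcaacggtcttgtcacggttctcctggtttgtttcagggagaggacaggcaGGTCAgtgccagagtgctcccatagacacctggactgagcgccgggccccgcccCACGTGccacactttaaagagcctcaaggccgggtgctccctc
Avpr1a: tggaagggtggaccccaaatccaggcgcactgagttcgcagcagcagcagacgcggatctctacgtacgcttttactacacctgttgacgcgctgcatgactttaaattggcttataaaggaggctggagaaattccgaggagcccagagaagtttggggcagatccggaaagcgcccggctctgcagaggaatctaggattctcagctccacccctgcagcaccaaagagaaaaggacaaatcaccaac
These runs lie at chr2:130575919-130576168 (plus strand) for Oxt, chr2:130582589-130582838 (minus strand) for Avp, chr6:112489826-112490075 (minus strand) for Oxtr and chr10:122448249-122448498 (plus strand) for Avpr1a. All 250 bases lay inside a peak for Oxt, Avp and Oxtr, and 0 of 250 did for Avpr1a.

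Matches were counted in the whole 300-base promoter window, which also holds the 50 bases past the start. The Oxt window held TGACC 5 times, at positions -184, -166, -160, -102 and -83 from the start. TGACC occurred at least once in 40.5% of the 32851 promoter windows in the table and at least 5 times in 0.0944% of them. The Oxtr window held TGACC at -97 and 24, where 10.8% of all windows held it at least 2 times, and CACGTG at -43. The Avp window held CACGTG at -139, and 7.15% of all windows held that motif. None of the 4 windows held the cyclic AMP response element TGACGTCA (1.79% of all windows), the full oestrogen response element (0.0700%), whose ends are themselves matches to TGACC, or the full glucocorticoid response element (0.00913%). These are letter matches only.

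The libraries held 26104576 to 55294838 counts in peaks, and the most covered 1% of peaks took 20.0 to 21.5% of them. One library, from a female handled mouse at 0 min (animal 45), stood apart with a TMM scaling factor of 0.875. The windows of Slc17a7 and Camk2a, which mark excitatory neurons of the forebrain, stood at the 92.5th and 90.5th percentile of accessibility. Those of Sim1 and Otp, transcription factors of hypothalamic neurons that make these peptides, stood at the 8.32nd and 2.71st. Percentiles of windows are among the 17633 of 21887 protein coding genes whose window held a peak. Windows without a peak were not ranked. In whole tissue, fewer nuclei with an open site and less opening per nucleus cannot be told apart, and that holds for every value below.

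The peptide and receptor starts that lay in a peak were open, but weakly for starts. Levels are given as CPM (each peak's count scaled to library size after TMM), and as CPM per kb of peak when different loci are compared. A start is here the first entry of the gene in the promoter table. The start of Oxt (position 130576169 on chromosome 2) lay in the peak chr2:130575825-130576945, with 3.65 ± 0.35 CPM (SD, n = 30) and 3.25 CPM per kb. The RefSeq body of Oxt begins further upstream, at position 130574519, which lay in no peak. The start of Avp (position 130582588) lay in the wider peak chr2:130582067-130587027, of 4961 bp, with 16.6 ± 1.1 CPM and 3.34 CPM per kb. The start of Oxtr (position 112489825 on chromosome 6) lay in the peak chr6:112488648-112491210, of 2563 bp, with 9.39 ± 0.93 CPM and 3.66 CPM per kb. The Oxtr body also reaches further upstream, to position 112491035, inside the same peak.

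Among the 11340 protein coding starts that lay in a peak, 64.8% of the 17491 with a promoter entry, the median was 6.05 CPM per kb. The Oxt, Avp and Oxtr start peaks stood at the 11.1th, 12.1th and 15.6th percentile of that density. By width they stood at the 14.5th, 76.3rd and 49.8th percentile, so the Avp peak was broad and shallow. The start of Avpr1a (position 122448499 on chromosome 10) lay in no peak, and the only peak of its window, chr10:122449038-122449402, began 539 bp downstream with 0.84 ± 0.15 CPM and 18 to 53 counts per library. For Avpr1b the strand of the gene was not in the tables used here. The peak chr1:131598804-131599309, with 1.27 ± 0.19 CPM, covered the end of the gene with the lower coordinate.

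**Figure D1:**
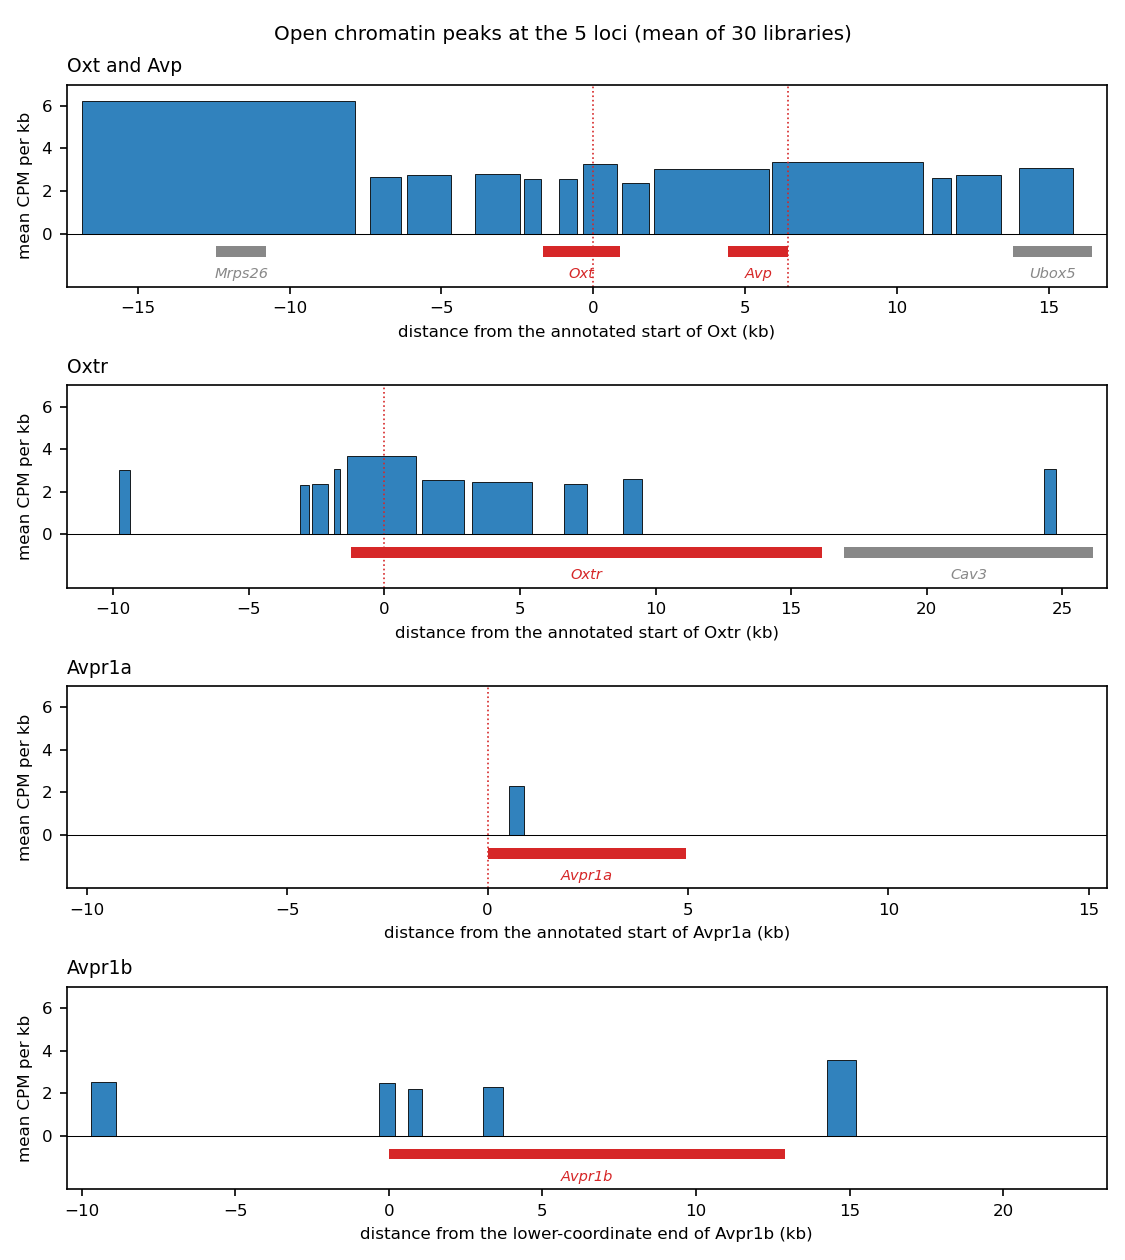
Peaks in the windows of the 5 genes, drawn against distance in kb from the annotated start (for Avpr1b, from the end with the lower coordinate). Bar height is the mean CPM per kb over 30 libraries, red bars are the 5 genes, grey bars are protein coding neighbours, and dotted lines are annotated starts. Most peaks stand between 2.21 and 3.66 CPM per kb, and the peak over Mrps26 reaches 6.24.

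Along the loci the peaks ranged from 230 to 9002 bp (median 850 bp, against 561 bp over all peaks) and from 2.21 to 6.24 CPM per kb. Their median of 2.62 CPM per kb stood beside 2.74 over all peaks, and 12 of 29 lay above it. The coefficient of variation over the 30 libraries ran from 6.26% to 25.5%. The densest and widest peak, chr2:130559323-130568324, belongs to the Oxt window by distance but covers Mrps26, which encodes a mitochondrial ribosomal protein, and the RNA gene 4930473A02Rik. It carried 56.2 ± 3.5 CPM, which was 54.1% of the signal of the Oxt window. Upstream of the Oxt start, 5 smaller peaks spanned 2.55 to 2.81 CPM per kb. The nearest of them, chr2:130575045-130575633, lay within the RefSeq body of Oxt. Between Oxt and Avp the small peak chr2:130577124-130578001 had 2.35 CPM per kb, and a broad peak over the end of Avp, chr2:130578176-130581960, had 3.05. In Oxtr, 4 peaks lay within the gene body downstream of the start peak, at 2.36 to 2.60 CPM per kb. One Oxtr window peak, chr6:112465061-112465500, lay in Cav3, the muscle caveolin gene next to Oxtr. The densest peak of the Avpr1b window, chr1:131613367-131614323, lay 1367 bp outside the gene with 3.41 ± 0.53 CPM and 3.56 CPM per kb.

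The 10 kb limit changed what was counted at the edges. The peak chr2:130587333-130587953 lay 10279 bp from Oxt and so counted for Avp alone, with 1.63 CPM. The peak chr2:130568819-130569844 lay 10776 bp from Avp and counted for Oxt alone, with 2.74 CPM. Outside the Oxtr and Avpr1b windows the nearest peaks had 1.31 CPM (11650 bp away) and 8.21 CPM (10879 bp away). The nearest peak beyond the Avpr1a window was 89199 bp away, with 1.16 CPM.

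Summed over each window, accessibility fell in the order Oxt, Avp, Oxtr, Avpr1b and Avpr1a, with 4.18 ± 0.15, 3.00 ± 0.15, 2.84 ± 0.12, 2.72 ± 0.22 and 2.29 ± 0.41 CPM per kb (SD, n = 30). Among the 17633 protein coding gene windows that held a peak these are the 56.9th, 10.5th, 6.56th, 4.34th and 0.423rd percentile. The table held 21887 protein coding genes, and those without a peak in the window are left out of this ranking. Without the peak over Mrps26 the Oxt window had 3.01 ± 0.15 CPM per kb, close to Avp, and it exceeded Avp in 16 of 30 libraries. Avp exceeded Oxtr in 24 of 30 libraries, Oxtr exceeded Avpr1b in 23, and Avpr1b exceeded Avpr1a in 23. The ranges of each of these 3 neighbouring pairs overlapped.

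**Figure D2:**
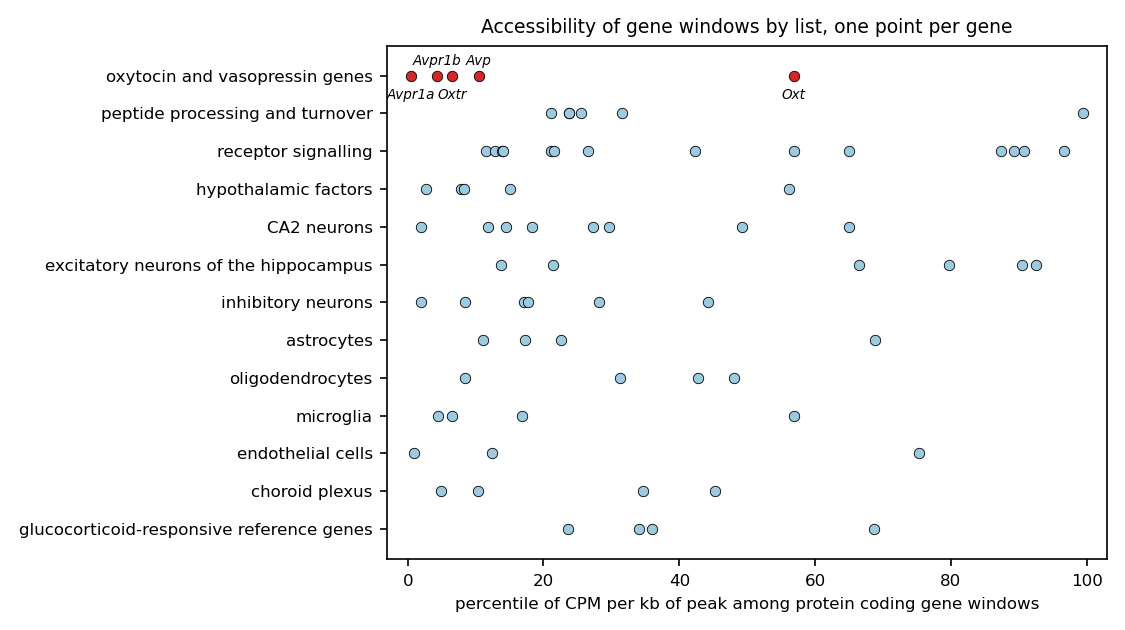
Percentile of CPM per kb of peak among protein coding gene windows that held a peak (x axis). The 5 genes are in red and genes of other lists in blue, one row per list and one point per gene. Avp, Oxtr, Avpr1b and Avpr1a stand between the 0.423rd and 10.5th percentile, and Oxt stands at the 56.9th with the peak over Mrps26 included.

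Acute restraint left every one of the 29 peaks short of the threshold. Averaged over both histories, 0 of 29 were called at an adjusted p under 0.05 (edgeR quasi-likelihood test, Benjamini-Hochberg over all tested peaks), where 0.116% of all peaks were called. At an unadjusted p under 0.05 there were 2 of 29, beside 7.17% of all peaks, and DESeq2 called 0 with 3 at an unadjusted p under 0.05 and no adjusted p for 4. The log2 changes ran from -0.18 to 0.22 with a median of 0.04 (all peaks -0.0025), and 20 of 29 were above 0 (all peaks 48.98%). Of the 95% intervals of the change, 26 of 29 lay wholly within 0.37 on either side of 0, which is the median size of the change at the peaks that were called.

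At the Oxt start peak the lowest, median and highest CPM were 2.72, 3.44 and 4.17 in handled mice at 0 min and 3.55, 3.69 and 4.02 in handled mice at 45 min. After chronic restraint they were 3.33, 3.75 and 4.26 at 0 min and 3.12, 3.51 and 4.12 at 45 min. All 4 groups overlapped, and the averaged acute change was 0.02 ± 0.067 (log2, SE; 95% interval -0.11 to 0.16; edgeR adjusted p = 0.979). Without animal 45 it was 0.0055 ± 0.066.

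At the Avp start peak the CPM were 15.5, 16.1 and 17.0 in handled mice at 0 min and 14.04, 17.1 and 18.8 at 45 min. After chronic restraint they were 14.04, 16.5 and 19.1 at 0 min and 15.3, 16.9 and 18.3 at 45 min. The groups again overlapped, and the acute change was 0.04 ± 0.043 (interval -0.05 to 0.13; edgeR adjusted p = 0.924). With 433 to 864 counts per library this was the most precisely measured of the 3 start peaks.

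At the Oxtr start peak the CPM were 7.47, 9.39 and 10.8 in handled mice at 0 min and 7.74, 9.56 and 10.6 at 45 min. In the mice with chronic restraint they were 9.33, 9.70 and 10.8 at 0 min and 8.46, 9.38 and 10.8 at 45 min. No group stood outside the others, and the acute change was -0.02 ± 0.051 (interval -0.12 to 0.08; edgeR adjusted p = 0.980). The Avpr1a peak had medians of 0.80, 0.88, 0.89 and 0.78 CPM in the 4 groups, in the same order, and a change of -0.04 ± 0.12 (interval -0.28 to 0.20).

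The smallest acute p-value of the 29 belonged to an Oxtr peak inside the gene, chr6:112486899-112488421, 1404 bp downstream of the start. Its lowest, median and highest CPM were 2.69, 3.75 and 4.49 in handled mice at 0 min and 3.11, 4.35 and 4.89 at 45 min. Chronically restrained mice had 2.96, 3.65 and 4.93 at 0 min and 3.76, 3.95 and 4.84 at 45 min. The medians were higher at 45 min within both histories while the ranges overlapped. The averaged change was 0.18 ± 0.072 (unadjusted p = 0.0174, edgeR adjusted p = 0.548), and within batches 1 to 4 it was 0.23, 0.32, -0.05 and 0.23, batch 4 holding only 1 mouse in each 45 min group. Deeper in Oxtr, 8803 bp from the start, chr6:112480309-112481022 had medians of 2.05, 1.85, 1.87 and 1.53 CPM in the 4 groups. Its acute change was -0.18 ± 0.091 (edgeR adjusted p = 0.704).

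Upstream of Avp, 4745 bp from the start, the peak chr2:130587333-130587953 had the largest positive averaged change of the 29. Its lowest, median and highest CPM were 1.02, 1.47 and 1.74 in handled mice at 0 min and 1.35, 1.71 and 2.04 at 45 min. In chronically restrained mice they were 1.24, 1.61 and 1.89 at 0 min and 1.501, 1.77 and 2.24 at 45 min. The medians were higher at 45 min in both histories and the ranges overlapped. The change was 0.22 ± 0.096 (unadjusted p = 0.0268, edgeR adjusted p = 0.611), and within the 4 batches it was 0.15, 0.15, 0.24 and 0.30. In the Oxt window the smallest acute p belonged to chr2:130573874-130574457, 1712 bp upstream of the start, with a change of 0.15 ± 0.098 (edgeR adjusted p = 0.817). In the Avpr1b window it belonged to chr1:131613367-131614323, with 0.07 ± 0.075 (edgeR adjusted p = 0.915). Animal 45 had the highest value of its group there, and without it the change was 0.11 ± 0.071 (unadjusted p = 0.115, edgeR adjusted p = 0.791).

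**Figure D3:**
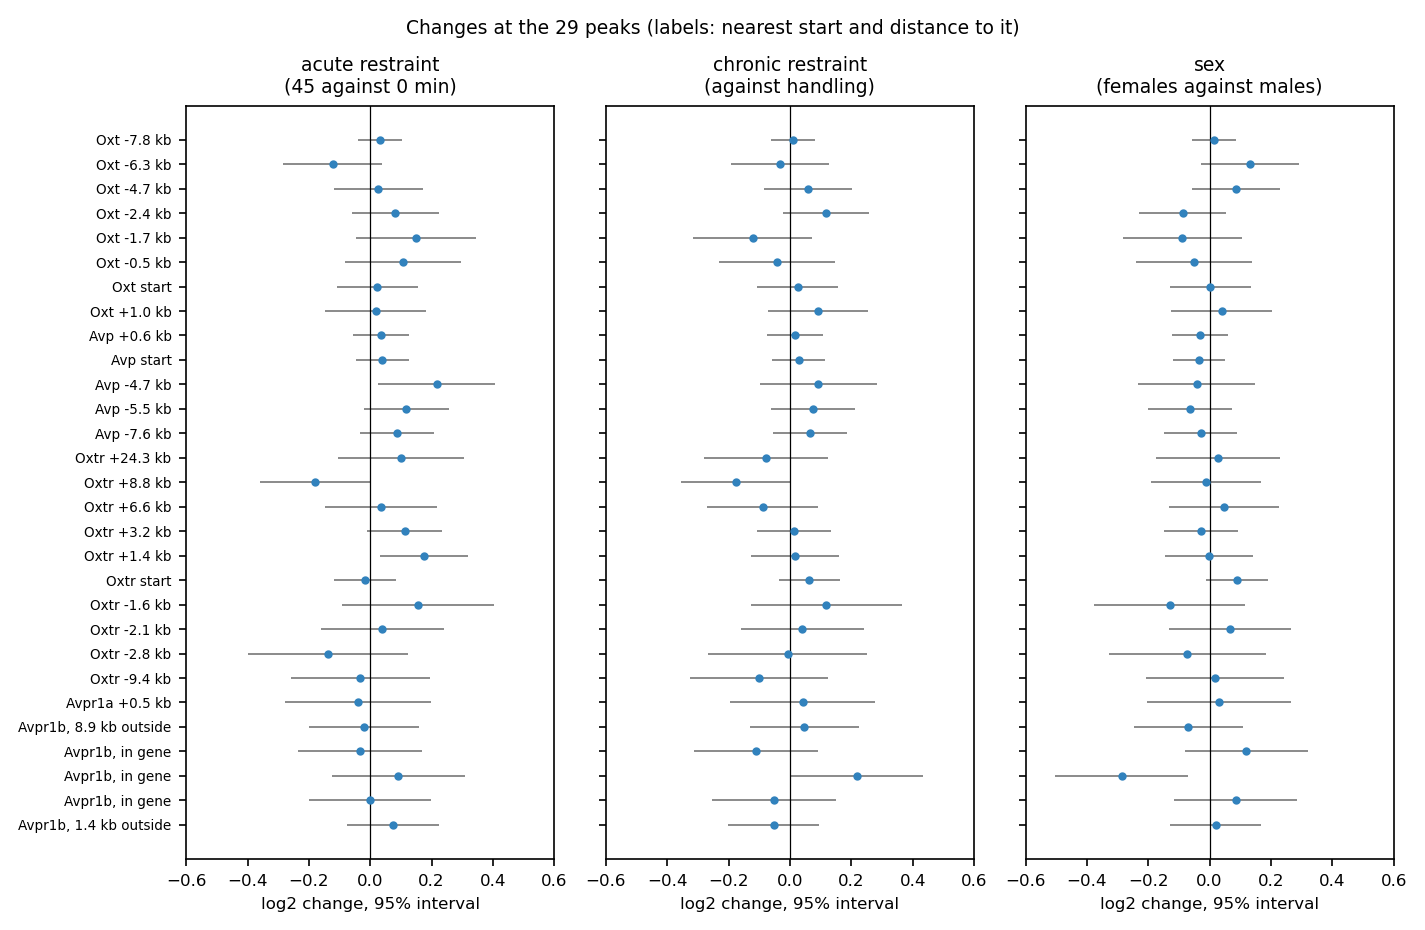
Log2 change (points) and 95% interval (lines) of the 29 peaks for acute restraint averaged over histories, chronic restraint averaged over times, and females against males, from the edgeR model of 30 libraries. Rows are named by the nearest annotated start and the distance to it, plus for downstream. The acute changes run from -0.18 to 0.22 and no peak was called.

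Within handled mice the acute comparison called 0 of 29 peaks (0.0109% of all peaks), with 2 at an unadjusted p under 0.05 against 5.52% of all peaks. Within chronically restrained mice it called 0 of 29 (0.00272% of all peaks), with 0 at an unadjusted p under 0.05 against 4.73%. DESeq2 called 0 in both, with 1 and 0 at an unadjusted p under 0.05, but gave no adjusted p to 1 and 16 of the 29, which it could therefore not call. These comparisons had larger errors, with a median SE over the 29 peaks of 0.13 in each history against 0.090 for the average.

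Which peaks had an unadjusted p under 0.05 depended in part on animal 45, while 0 of 29 were called without it in all 10 comparisons. For the averaged acute effect 3 of 29 had such a p without that library (7.43% of all peaks), with chr6:112484378-112486592 inside Oxtr (0.12 ± 0.059; unadjusted p = 0.0402, edgeR adjusted p = 0.641) added to the Oxtr and Avp peaks above. Those 2 peaks were then at 0.16 ± 0.068 (unadjusted p = 0.0222) and 0.19 ± 0.095 (unadjusted p = 0.0424). In handled mice the 2 peaks were chr6:112486899-112488421 in Oxtr (0.23 ± 0.10; unadjusted p = 0.0266) and chr2:130590187-130591972 upstream of Avp (0.17 ± 0.086; unadjusted p = 0.0480). Without animal 45 they had 0.19 ± 0.098 (unadjusted p = 0.0560) and 0.16 ± 0.085 (unadjusted p = 0.0597), and the count was 1 (6.01% of all peaks), at chr6:112484378-112486592 (0.17 ± 0.085; unadjusted p = 0.0496). In chronically restrained mice the count was 0 (6.02%). For chronic restraint averaged over times, at 0 min and at 45 min it was 0, 1 and 1 (4.97%, 4.77% and 4.63% of all peaks), the 0 min peak being the Oxtr start peak (0.16 ± 0.067; unadjusted p = 0.0196, edgeR adjusted p = 0.999). For the interaction and for sex it was 1 in each (4.42% and 4.98%). For the sex differences of the acute and the chronic effect it was 1 and 2 (4.13% and 5.48%).

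Chronic restraint called 0 of 29 peaks averaged over times, at 0 min and at 45 min, and in each of these comparisons 0% of all peaks was called. At an unadjusted p under 0.05 there were 1, 0 and 1 of the 29, beside 5.44%, 4.60% and 3.78% of all peaks, and DESeq2 called 0 in each with 2, 0 and 1. The averaged log2 changes of the 29 ran from -0.18 to 0.22 with a median of 0.02. The start peaks of Oxt, Avp and Oxtr had fitted changes of 0.03 ± 0.066, 0.03 ± 0.043 and 0.06 ± 0.050, with 95% intervals of -0.11 to 0.16, -0.06 to 0.12 and -0.04 to 0.16. Without animal 45 the Oxt value was -0.00043.

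The smallest p for chronic restraint was that of chr1:131599729-131600201 inside Avpr1b. Its lowest, median and highest CPM were 0.50, 0.96 and 1.17 in handled mice at 0 min and 0.77, 1.01 and 1.23 at 45 min. After chronic restraint they were 0.68, 1.05 and 1.75 at 0 min and 0.78, 1.13 and 1.60 at 45 min. The chronic groups reached higher, in 0 min mice through 1 library, and all groups overlapped. The change was 0.22 ± 0.11 (unadjusted p = 0.0484, edgeR adjusted p = 0.912), and without animal 45 it was 0.19 ± 0.11 (unadjusted p = 0.0913). In Oxtr the smallest p was that of chr6:112480309-112481022, described above, with -0.18 ± 0.090 (edgeR adjusted p = 0.912). In both the Oxt and the Avp window it was that of chr2:130572272-130573761, 2408 bp upstream of the Oxt start, with 0.12 ± 0.071 (edgeR adjusted p = 0.913). Without animal 45 that change was 0.07 ± 0.066 (edgeR adjusted p = 0.991), and in males only it was below 0.

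The acute response was also compared between the histories. The interaction called 0 of 29 peaks (0% of all peaks), and 1 of 29 had an unadjusted p under 0.05 against 3.03% of all peaks. DESeq2 called 0 with 1 at an unadjusted p under 0.05. That peak, chosen after its values were seen, was chr2:130577124-130578001 between Oxt and Avp, 70 bp past the end of Oxt. Its lowest, median and highest CPM were 1.73, 2.07 and 2.63 in handled mice at 0 min and 1.56, 1.77 and 2.30 at 45 min. In the mice with chronic restraint they were 1.69, 1.92 and 2.38 at 0 min and 2.05, 2.27 and 2.51 at 45 min. The median was lower at 45 min in handled mice and higher in chronically restrained mice, with overlapping ranges. The interaction was 0.39 ± 0.16 (interval 0.06 to 0.72; unadjusted p = 0.0204, edgeR adjusted p = 1.0), and within batches 1 to 4 it was 0.36, 0.40, 0.26 and 0.65. Batch 4 held only 1 mouse in each 45 min group, a male after handling and a female after chronic restraint. Its value therefore cannot be told apart from sex. Over the 29 peaks the interaction ran from -0.17 to 0.39, and single intervals reached -0.62 and 0.72. Differences between the histories of that size were therefore not detectable at every peak.

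Whole windows gave smaller errors. Of 34935 gene windows, 0.375% were called for the averaged acute effect, and 0 of the 5 described here were (edgeR). At an unadjusted p under 0.05 there was 1 of 5, against 9.53% of all windows. The Avp window had lowest, median and highest levels of 2.69, 2.92 and 3.11 CPM per kb in handled mice at 0 min and 2.88, 2.98 and 3.23 at 45 min. Chronically restrained mice had 2.78, 2.93 and 3.20 at 0 min and 3.02, 3.07 and 3.30 at 45 min. The 45 min groups lay slightly higher and overlapped the 0 min groups. Its averaged acute change was 0.06 ± 0.026 (unadjusted p = 0.0265, edgeR adjusted p = 0.433). Within batches it was 0.08, 0.11, -0.01 and 0.07.

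The averaged acute change of the other windows was 0.03 ± 0.020 for Oxt, 0.04 ± 0.028 for Oxtr, 0.03 ± 0.044 for Avpr1b and -0.04 ± 0.11 for Avpr1a. In chronically restrained mice the Oxt window had lowest, median and highest levels of 3.87, 4.12 and 4.30 CPM per kb at 0 min and 4.15, 4.36 and 4.42 at 45 min. The change was 0.07 ± 0.028 (unadjusted p = 0.0132, edgeR adjusted p = 0.961), beside -0.0073 ± 0.028 in handled mice. The fitted change of the Avp window in chronically restrained mice was 0.07 ± 0.036 (unadjusted p = 0.0480), so 2 of the 5 windows had an unadjusted p under 0.05 there, against 4.53% of all windows. These 2 windows, Oxt and Avp, share 8 peaks, so they are not independent here or in the counts below. The shared peaks alone, a set chosen after seeing the data, had 0.07 ± 0.038 (edgeR unadjusted p = 0.0706). The interaction had an unadjusted p under 0.05 in 1 of 5 windows, against 1.02% of all, at Oxt with 0.08 ± 0.039 (unadjusted p = 0.0490, edgeR adjusted p = 1.0). Without the peak over Mrps26 the Oxt change in chronically restrained mice was 0.06 ± 0.039 (unadjusted p = 0.132) and the interaction 0.05 ± 0.055 (unadjusted p = 0.365). Without animal 45 the Oxt interaction was 0.06 ± 0.037 (unadjusted p = 0.0887), and 0 of 5 windows then had a p under 0.05 for it, against 3.55% of all windows. The averaged acute change of the Oxt window was 0.04 ± 0.018 without that library (unadjusted p = 0.0402, edgeR adjusted p = 0.375), so 2 of 5 windows had such a p, against 12.3%. In chronically restrained mice the count stayed at 2 (7.3% of all windows), and for chronic restraint at 45 min it was 1 (5.14%), at Oxt with 0.06 ± 0.026 (unadjusted p = 0.0292). No window of the 5 was called in any of the 10 comparisons. Of all windows 0.0429% were called for acute restraint in handled mice, 0.00572% for acute restraint in chronically restrained mice and 0.272% for sex, with 0% for chronic restraint at either time or averaged, the interaction and both sex differences of effects.

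**Figure D4:**
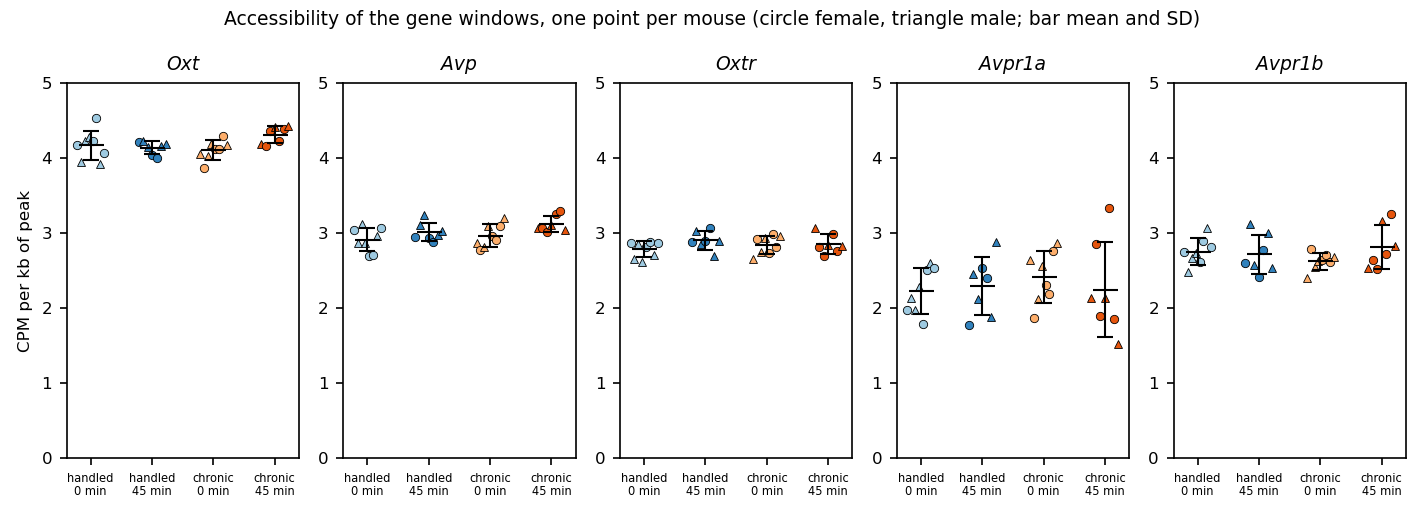
CPM per kb of peak in the window of each gene, one point per mouse (circles females, triangles males) in the 4 groups of 7 or 8, with the mean and SD in black. The groups overlap in every panel, and Avpr1a, with 1 peak, is the most scattered at 2.29 ± 0.41 over all mice.

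Females and males were compared across all groups. Of the 29 peaks 0 were called (0.0350% of all peaks), with 1 at an unadjusted p under 0.05 against 5.37% of all peaks, and DESeq2 called 0 with 1 at an unadjusted p under 0.05. That peak was again chr1:131599729-131600201 in Avpr1b, with lowest, median and highest CPM of 0.50, 0.92 and 1.24 in 15 females and 0.78, 1.07 and 1.75 in 15 males. The sexes overlapped, and the female minus male difference was -0.29 ± 0.11 (unadjusted p = 0.00973, edgeR adjusted p = 0.906), with within-batch values of -0.26, -0.40, -0.22 and -0.20. The start peak of Oxtr, whose gene is known as an oestrogen target in the rat uterus, had 9.66 ± 0.77 CPM in females and 9.12 ± 1.0 in males (0.09 ± 0.050; edgeR adjusted p = 0.944). At the start peaks of Oxt and Avp the female minus male values were 0.0019 ± 0.066 and -0.03 ± 0.043.

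The acute effect differed between the sexes at 0 of 29 peaks (0.000389% of all peaks were called), with 0 at an unadjusted p under 0.05 against 3.72% of all peaks. The chronic effect differed at 0 of 29 (0% of all peaks), with 2 at an unadjusted p under 0.05 against 9.27%. These were chr2:130572272-130573761 upstream of Oxt, at 0.38 ± 0.14 (females minus males; edgeR adjusted p = 0.399), and the Oxtr start peak, at -0.23 ± 0.10 (edgeR adjusted p = 0.475). The former rested in part on animal 45, whose 2.38 CPM was the lowest value of all, and was 0.28 ± 0.13 (edgeR adjusted p = 0.904) without it. The latter was -0.21 ± 0.10 without that library.

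The genes that make and remove the peptides and pass on the receptor signal were counted by the same test. The 6 genes of peptide processing and turnover with a peak (Pcsk1, Pcsk2, Cpe, Pam, Scg5 and Lnpep) held 186 peaks, and Cd38 had none. Of these 186, 0 were called for the averaged acute effect, where 0.116% of all peaks were called. The smallest p was at Pcsk1, a convertase that cuts peptide precursors, with -0.31 ± 0.073 (edgeR adjusted p = 0.0519). Of 807 peaks at 14 genes of receptor signalling, 0 were called (0.116% of all peaks). The smallest p there was at a peak within 10 kb of Plcb1, a phospholipase C, and outside its body, with -0.45 ± 0.11 (edgeR adjusted p = 0.0952). Of 72 peaks at the hypothalamic factors and of 111 at CA2 marker genes, 0 were called, again beside 0.116% of all peaks. At an unadjusted p under 0.05, 2 peaks were higher and 10 lower in the processing list, and 16 and 32 in the signalling list. The same counts were 3 and 3 for the hypothalamic factors and 6 and 5 for CA2 genes, and 7.17% of all peaks had such a p.

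Median log2 changes over the 4 lists lay between -0.014 and 0.0065, beside -0.0025 over all peaks. Between sexes 1 of the 807 receptor signalling peaks was called (0.0350% of all peaks), and it was higher in females by 0.27 ± 0.054 (edgeR adjusted p = 0.0109). That peak, chrX:73879817-73881844, was counted for Avpr2, the kidney vasopressin receptor, by distance only. It lay 9921 bp outside Avpr2 and overlapped L1cam, a neural cell adhesion molecule. In the same libraries 8 of 99 peaks at 4 glucocorticoid-responsive reference genes rose with acute restraint, at Sgk1, Fam107a, Fkbp5 and Plin4, with a median of 0.11 over the 99, where 0.116% of all peaks were called. The 8 called peaks changed by 0.27 to 0.51. The peak at 0.27, chr17:56095359-56117927, overlapped Hdgfl2 and Plin5 as well as Plin4. These 4 genes were chosen with results of these data known, and their called peaks serve only to show the size of change that was called. Of the cell type marker lists, 1 of 85 oligodendrocyte peaks was called, with a rise, 5517 bp outside Mobp, a myelin gene. In the excitatory, inhibitory, astrocyte, microglia, endothelial and choroid plexus lists 0 were called. At an unadjusted p under 0.05, 15 oligodendrocyte peaks were higher and 2 lower, against 7.17% of all peaks, and the median change over the 85 was 0.02. The summed oligodendrocyte level had a lowest, median and highest CPM of 529, 559 and 593 in handled mice at 0 min and 548, 569 and 584 at 45 min. After chronic restraint it had 519.6, 545 and 556 at 0 min and 534, 550.1 and 574 at 45 min. The medians were higher at 45 min in both histories, the groups overlapped, and the part of this list in the changes of the 29 peaks was not tested. In the other 6 cell type lists 22 to 60 peaks gave 1 to 3 with such a p.

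The gene windows on other chromosomes whose levels followed each gene most closely over the 30 libraries, after removal of batch means, were taken by Pearson's r. They were Zfp512 for Oxt (r = 0.756), Gm43915 for Avp (r = 0.767) and Gm42004 for Avpr1a (r = 0.688). For Oxtr they were Dmrta2 and Dmrta2os, which share a window (r = 0.733), and for Avpr1b Gm10336 (r = 0.623). Each is the highest of 30059 to 30977 windows compared, and all share the libraries and their depth, so these values are descriptions only.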

How the data were processed

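ATAC-seq counts per peak, made by the authors and deposited as raw whole numbers for one set of regions, were used as they stand. Trimmomatic, Bowtie2, Picard, Genrich 0.6.1 and the build GRCm38 are named per the submitters' processing notes. How regions were merged, and whether reads, fragments or insertions were counted, is not given in the sources used here. The table held 2 columns that matched no sample, which were not used.

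Peaks were tied to genes by RefSeq extents on GRCm38.p6 (GenomicRanges 1.54.1, R 4.3.3). In edgeR 4.0.16, filterByExpr kept 257143 peaks. TMM set the library scaling, and quasi-likelihood F-tests (estimateDisp, robust glmQLFit, glmQLFTest) came from a model with the 4 groups, sex and batch over all 30 libraries. Sex differences of the effects came from 8 cells of group and sex with batch. P-values were adjusted by Benjamini-Hochberg over all tested peaks, and a peak was called under 0.05. Counts summed over gene windows were fitted likewise. DESeq2 1.42.0 was an alternative. The steps were tested on simulated data. Total counts of 26104576 to 55294838 gave the 29 peaks means of 27.8 to 2218 counts. Counting intervals were not used, and errors are those between mice.

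The peaks named for each gene were the one over or nearest the start, the one with the highest CPM, and those with the smallest p for the acute, chronic and sex comparisons. The start part could not be applied to Avpr1b. The genes and lists were chosen with earlier results of these data known. Alternatives were other scalings, filters, covariates, windows, and leaving out batches, a sex or a library.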

Additional observations from a re-analysis of the deposited data

Results flagged for a closer look

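Among 84 groups checked in 21 peaks and windows, 5 had a single library at one end that passed an outlier check. The chance level of the check was 1 in 20 per group. Windows share peaks with each other and with the single peaks, so the groups are not independent. The count therefore cannot be weighed against that level. The gap to the next library was 0.533 to 0.565 of the range of its group, just past the critical value of 0.526. Of the 5 libraries, 3 were that of animal 45, a female handled mouse at 0 min with a TMM factor of 0.875. Over Mrps26, chr2:130559323-130568324 had 68.9 CPM in that library, and the next highest was 59.6. At chr2:130572272-130573761, upstream of Oxt, it had 2.38 CPM, and the next lowest was 3.74. At chr1:131613367-131614323, beside Avpr1b, it had 4.85 CPM, and the next highest was 3.69. At that last peak animal 24, chronically restrained and taken at 0 min, was lowest with 2.79 CPM, and the next lowest was 3.06. Inside Avpr1b, chr1:131599729-131600201 had 1.75 CPM in animal 63 of the same group, and the next highest was 1.16.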

How the results depend on the processing

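The count of called peaks stayed at 0 in all 139 combinations of comparison and alternative, among them DESeq2, other scalings, filters and covariates, windows of 2 and 50 kb, 1 sex, and leaving out animal 45 or each batch. DESeq2 gave no adjusted p to 4, 1 and 16 of the 29 peaks in the averaged, handled and chronically restrained acute comparisons. With 50 kb windows 9 of 84 peaks had an unadjusted p under 0.05 for the averaged acute effect, against 7.17% of all peaks. Of 334 changes of named peaks and 52 of windows, 23 and 4 changed sign. None passed the threshold in any setting, and the cause was not tested. For the Avpr1a peak these were acute restraint without batch 3 (0.13) and in females only (0.055), chronic restraint without batch 1 (-0.028), without batch 2 (-0.043) and in males only (-0.062), and sex without batch 2 (-0.0061) and without batch 3 (-0.037). For chr1:131613367-131614323 they were acute restraint without batch 3 (-0.015) and in females only (-0.031). For chr2:130572272-130573761 it was chronic restraint in males only (-0.049), and for chr2:130568819-130569844 sex without batch 1 (-0.016). For the Oxt start peak they were acute restraint without batch 2 (-0.034) and without batch 4 (-0.0055), chronic restraint without animal 45 (-0.00043) and without batch 2 (-0.011), and sex with total counts (-0.017), with peaks of a mean of 50 or more counts (-0.0055), without batch 1 (-0.036) and without batch 2 (-0.0083). For the Avp start peak it was chronic restraint without batch 3 (-0.028). For the Oxtr start peak they were acute restraint without batch 3 (0.021) and in males only (0.0054), and chronic restraint in females only (-0.051). The sex difference of the Oxt window was -0.0076 without animal 45, -0.015 without the peak over Mrps26 and -0.024 over the peaks shared with Avp (these latter 2 settings were chosen after seeing the data). The chronic effect on the Avpr1b window was 0.0037 without animal 45. No paired analysis was possible because animal numbers are not shared between groups. The Avpr1a peak, with 18 to 53 counts per library, allows no statement on changes smaller than its interval.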
